A study of Mus musculus with 20 samples.

Results

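The 9 genes described here encode transcription factors that mark or build the microglia and monocyte lineages: Sall1, Sall3, Mef2c, Runx1, Runx3, Irf8, Spi1, Cebpb and Klf4. They were taken by symbol, not by their values, and all 9 were listed in both deposited expression tables, one of 16536 genes (GFP table) and one of 16140 genes (Cre table). RNA came from monocytes and microglia sorted from mouse brains 3 days after permanent photothrombosis, a stroke model in which light activates a dye that clots cortical vessels. From Cxcr4-GFP reporter mice, the GFP table has GFP-positive monocytes and GFP-negative microglia (4 libraries each). The Cre table holds 3 libraries each of monocytes and microglia from mice with a conditional Cxcr4 knockout (Cxcr4CreER KO, called KO mice) and from Cxcr4CreER control mice. In this line a tamoxifen-activated Cre is made where Cxcr4 is active. Monocytes of the Cre table were sorted as TdT-positive and microglia as TdT-negative, so the sort signal cannot be told apart from the population in either table. KO microglia are therefore unlabelled cells of KO animals, and whether they lost Cxcr4 is not shown. Age, sex and the tamoxifen schedule were not given in the labels. Sample titles of all GFP libraries and of the KO libraries carry an unexplained tag, BrKo, and the labels do not say whether the GFP mice hold a further allele. Each library within a group came from another mouse or pool. A pool of 5 mice, another of 2 and 2 single mice gave the 4 GFP pairs, while 2 KO and 2 control mice gave a library of each population.

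Microglia settle in the brain from yolk sac precursors and keep their identity through a small set of transcription factors. Spi1 encodes PU.1, the ETS factor that every macrophage and monocyte needs, and Irf8 encodes a partner of PU.1 that is needed for both microglia and Ly6C-high monocytes. Sall1, a zinc finger repressor, holds microglia in their resting state, and Mef2c, a MADS-box factor, restrains their inflammatory response. Sall3 is a close relative of Sall1. Runx1 and Runx3 encode DNA-binding partners of Cbfb and act in blood cell development. Cebpb encodes a C/EBP factor needed for Ly6C-low monocytes and for inflammatory gene induction, and Klf4 encodes a Krüppel-like factor that drives monocyte differentiation.

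GFP libraries held 617302 to 14927208 reads and Cre libraries 9732177 to 56803993 reads. Few genes were detected in GFP monocytes 3 (3029), microglia 3 (5598) and microglia 4 (3489), while the remaining GFP libraries had 10422 to 14498. Values are normalized counts, which are reads divided by 1 size factor per library, so that a read is worth 0.104 to 2.58 normalized counts in the GFP table and 0.375 to 2.19 in the Cre table. The tables were normalized apart and were not compared with each other, and no gene's level was compared with another's. The labelled populations carried their markers: of 12 microglia markers, 8 were lower in GFP monocytes, 10 in KO monocytes and 11 in control monocytes, and none was higher. Of the monocyte markers, 3 of 9 tested were higher in GFP monocytes, 12 of 12 in KO monocytes and 11 of 12 in control monocytes. Other myeloid markers moved with the populations too: 9 of 13 tested neutrophil and granule genes were higher in KO monocytes and 5 of 13 in control monocytes, and 3 of 6 tested border-associated macrophage markers were higher in each. Summed levels of 14 neutrophil and granule genes were 40533 to 79083 in KO monocytes and 16904 to 41469 in control monocytes, against 218 to 3081 in KO microglia and 186 to 486 in control microglia. Summed border-associated macrophage markers (7 genes, 2 of them also in the monocyte list) were 42333 to 52553 in KO monocytes and 48098 to 58507 in control monocytes, against 1554 to 2278 in KO microglia and 2031 to 4006 in control microglia. The part of these cells in the results was not tested. Cxcr4, the deleted receptor, averaged 777 ± 237 normalized counts in KO monocytes and 1227 ± 91.4 in control monocytes (SD, n = 3 each). These groups did not overlap, but the log2 fold of -0.70 (SE 1.10) did not pass the test (limma, adjusted p = 0.962). The SE comes from a spread shared by all 4 Cre groups, among them microglia averaging 0.304 (KO) and 2.63 (control) normalized counts. Counts per gene cannot tell which stretch of Cxcr4 the knockout removes.

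By a call in at least 1 of the 3 population comparisons, the factors split into a microglia-high, a monocyte-high and an uncalled group. Sall1, Sall3 and, less uniformly, Mef2c were microglia-high. Runx3, and Cebpb by less, were monocyte-high. Runx1, Irf8, Spi1 and Klf4 had no called difference. Of these, Runx1 and Irf8 were lower in monocytes without overlap in KO and control mice, and Spi1 was higher without overlap in control mice. A gene was called where limma, run two-sided on log2 of the value plus 1, gave it an adjusted p under 0.05, with the adjustment made over every gene tested. In GFP mice, 2 of the 9 factors were called, against 0.908% of all tested genes, and 4 had groups that did not overlap, against 9.41%. In KO mice, 3 of the 9 were called, against 6.83% of tested genes, and 7 did not overlap, against 27.5%. In control mice, 4 of the 9 were called, against 6.52%, and 8 did not overlap, against 22.1%. Across all tested genes the median log2 fold of monocytes over microglia was 0.51 in GFP mice, -0.25 in KO mice and -0.24 in control mice, against medians of -0.57, -0.60 and -0.82 for the 9 factors. In bulk RNA, fewer cells that express a gene and less RNA per cell cannot be told apart.

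**Figure D1:**
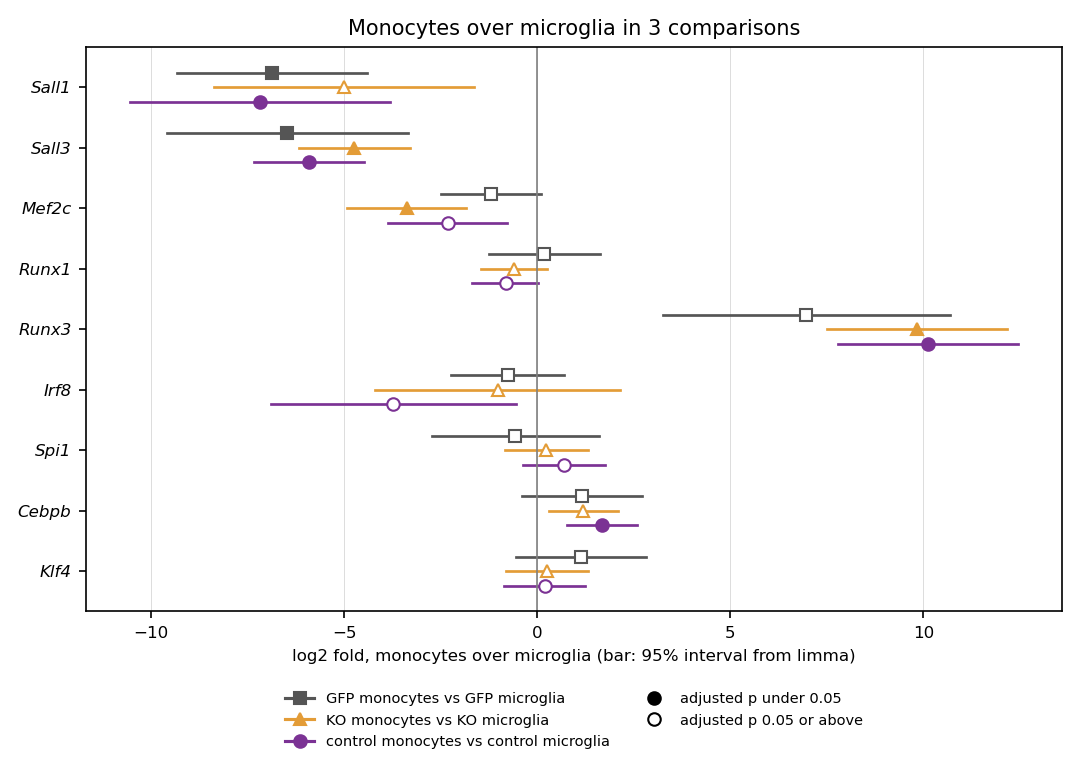
Log2 fold of monocytes over microglia for each factor in the GFP, KO and control mice, with 95% intervals from limma; filled symbols have an adjusted p under 0.05. Sall1 and Sall3 lie left of 0 and Runx3 lies right of 0 in all 3 comparisons, while the intervals of Runx1, Spi1 and Klf4 include 0.

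Sall1 was high in every microglia library and low to absent in monocytes. GFP monocytes had 30.1, 12.7, 0 and 46.0 normalized counts, against 1273, 1640.3, 1990.5 and 901 in GFP microglia. The zero, in GFP monocytes 3, allows up to 3 reads, or 3.97 normalized counts, counting error only. Every GFP microglia library lay far above every monocyte library, and Sall1 was lower in monocytes by a log2 fold of -6.87 (SE 1.19, limma, adjusted p = 0.00182). In KO mice, monocytes had 135, 228 and 9.35 normalized counts and microglia 2033, 2171 and 2437. In control mice, monocytes had 2.37, 266 and 2.56 normalized counts and microglia 2519, 1809 and 2105. The 2.37 and 2.56 are 3 and 2 reads, so folds taken over them are imprecise. Groups did not overlap in either genotype, but monocyte libraries differed from each other by up to 24.3-fold in KO mice and 112-fold in control mice, while microglia libraries of one genotype stayed within 1.39-fold. With that spread the call was made in control mice (log2 fold -7.17, SE 1.54, limma, adjusted p = 0.0157) and not in KO mice (log2 fold -5.01, SE 1.54, limma, adjusted p = 0.0803). The call in control mice was lost with edgeR (adjusted p = 0.139), with the control groups fitted alone (0.0860), and without control monocytes 1 (0.0591), control monocytes 3 (0.0546), control microglia 1 (0.0519) or control microglia 3 (0.0510). In KO mice it was gained with DESeq2 (adjusted p = 0.0132), with a pseudocount of 10 (0.0253), with the KO groups fitted alone (0.0417) and without control monocytes 2, which shares the spread estimate (0.00959). A difference between the genotypes did not pass the test (genotype-by-population term 2.16, SE 2.18, limma, adjusted p = 0.999).

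Sall3 followed Sall1 with less spread among the Cre monocytes. GFP monocytes had 9.40, 8.95, 0 and 4.85 normalized counts and GFP microglia 299.6, 349, 696 and 529. In KO mice the values were 34.7, 119 and 95.5 in monocytes and 1346, 2244 and 2579 in microglia. In control mice they were 29.2, 65.8 and 23.0 in monocytes and 3386, 1811 and 1738 in microglia. No groups overlapped, and Sall3 was called lower in monocytes in all 3 comparisons, with log2 folds of -6.48 (SE 1.52, adjusted p = 0.0298) in GFP mice, -4.74 (SE 0.65, adjusted p = 0.00111) in KO mice and -5.92 (SE 0.65, adjusted p = 0.000267) in control mice by limma. The GFP call was lost with the animal as a block (limma, adjusted p = 0.0595), with no filter on low values (0.0563) and without any one of GFP microglia 1 to 4 (0.0789 to 0.191).

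Mef2c had lower values in monocytes in all 3 comparisons, was called in KO mice, and was detected in every monocyte library. GFP monocytes had 387, 268, 230.0 and 301 normalized counts, against 728, 700.1, 840.4 and 473 in GFP microglia. Values in KO mice were 675, 136 and 917 in monocytes and 5013, 4256 and 4528 in microglia. In control mice they were 327, 1490.0 and 1343 in monocytes and 5877, 3382 and 4124 in microglia. The groups were apart in each of the 3 comparisons, and the call was made in KO mice (log2 fold -3.38, SE 0.71, limma, adjusted p = 0.0142), and not without KO microglia 1 (0.0524) or KO microglia 3 (0.0501). The log2 fold was -2.32 (SE 0.71, limma, adjusted p = 0.0798) in control mice and -1.20 (SE 0.63, limma, adjusted p = 0.765) in GFP mice. In control mice Mef2c was called with DESeq2 (log2 fold -2.09, adjusted p = 0.0152) and without KO monocytes 2 (limma, -2.32, 0.0238). The difference between the genotypes did not pass the test (genotype-by-population term -1.06, 95% interval -3.24 to 1.12, limma, adjusted p = 0.999). Among the 6 Cre monocyte libraries, KO monocytes 2 had the lowest Mef2c value and the second highest Sall1 value, and control monocytes 2 had the highest of both.

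**Figure D2:**
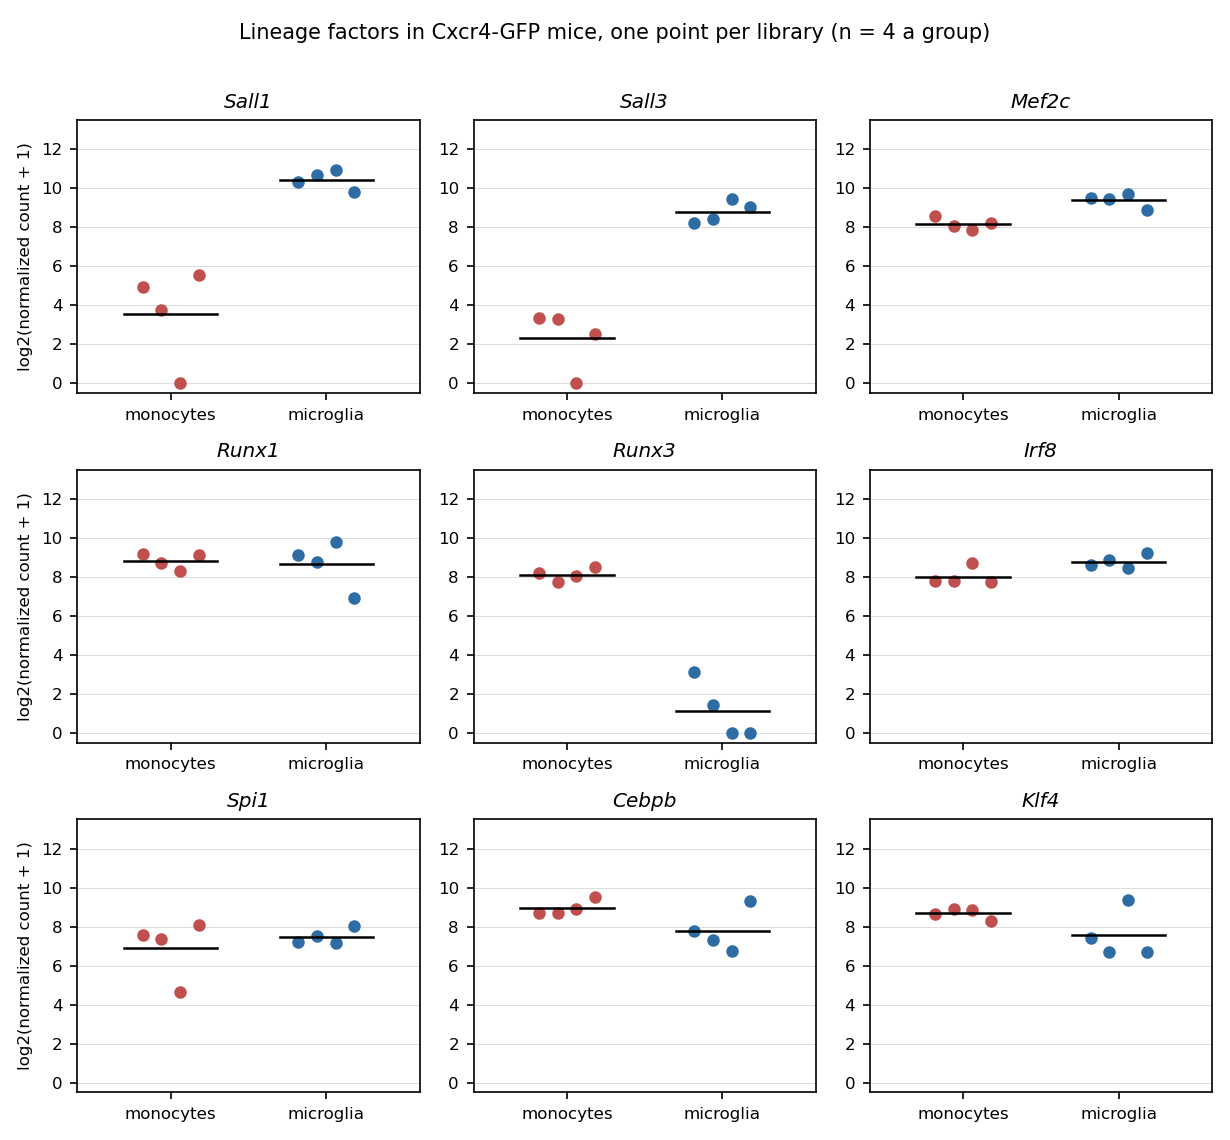
Each of the 9 factors in the 8 GFP libraries, as log2 of the normalized count plus 1, with monocytes at the left and microglia at the right; points are libraries and bars are group means of the log2 values. Sall1, Sall3, Mef2c and Runx3 have no overlap between the groups, and the other 5 panels overlap.

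**Figure D3:**
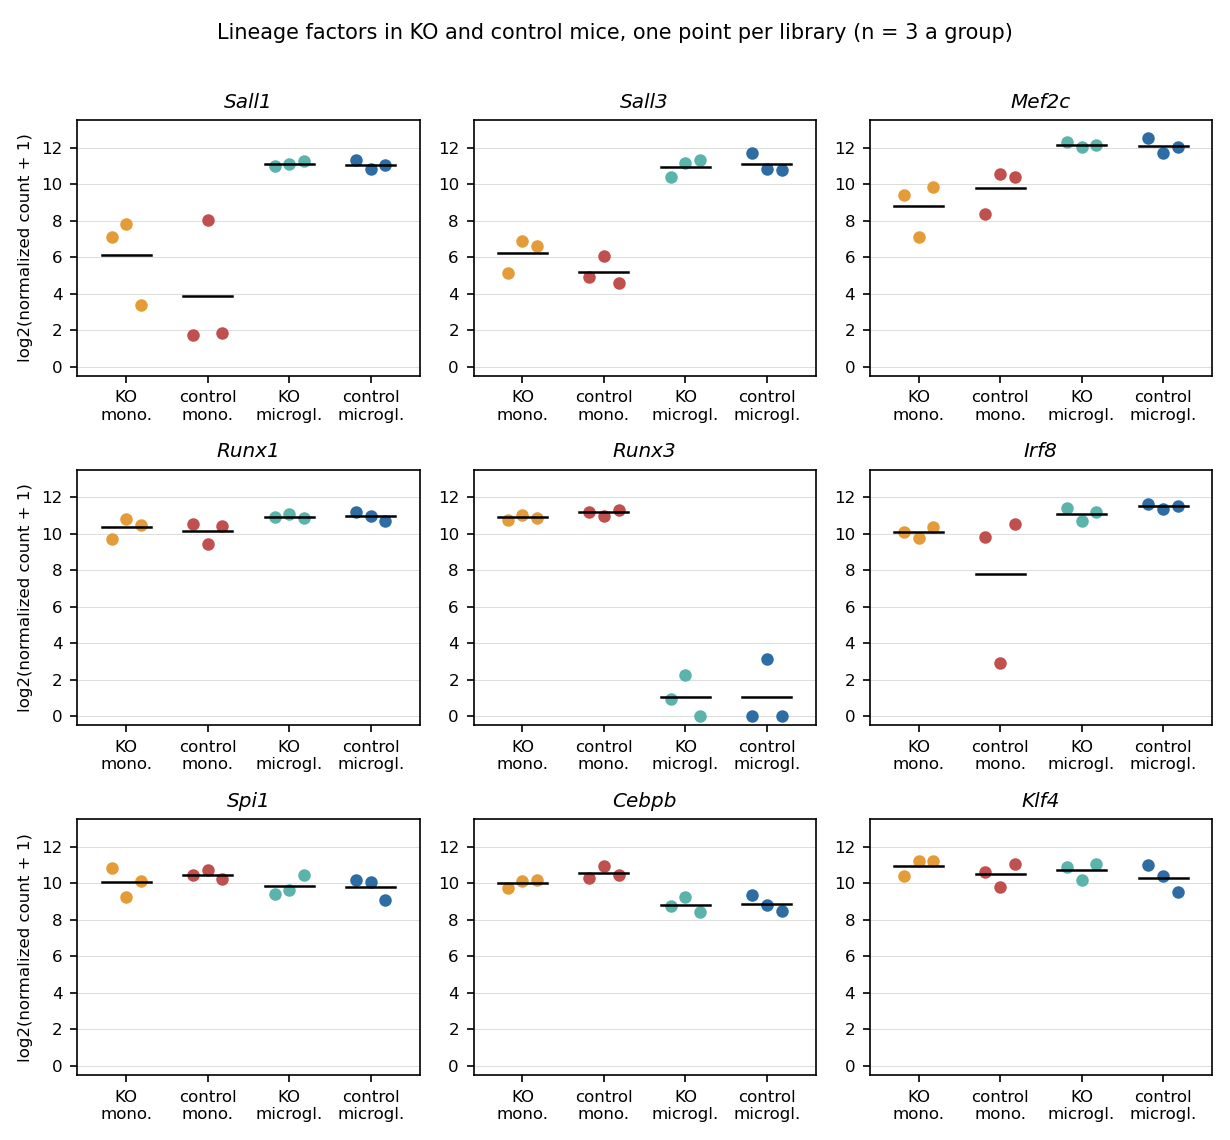
The same 9 factors in the 12 Cre libraries, as log2 of the normalized count plus 1, for KO monocytes, control monocytes, KO microglia and control microglia; points are libraries and bars are means of the log2 values. Runx3 is far lower in the 6 microglia libraries than in the 6 monocyte libraries, Sall1 spreads widely among monocytes, and 1 control monocyte library has Irf8 near 3 on this scale (6.58 normalized counts).

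Because monocyte libraries could hold some microglial RNA, the microglia-high factors were set beside 12 microglia surface, enzyme and receptor markers, each as a percentage of its mean in the microglia of the same table and genotype. The median marker stood at 9.09%, 8.76% and 9.41% in KO monocytes 1 to 3 and at 12.80%, 8.32% and 12.98% in control monocytes 1 to 3. Sall1 stood at 6.11%, 10.3% and 0.422% in KO monocytes and at 0.110%, 12.4% and 0.119% in control monocytes. The 0.110% and 0.119% rest on 3 and 2 reads. In KO monocytes 3 and in control monocytes 1 and 3, Sall1 was thus far under the median marker. It was below the median in KO monocytes 1 and above it in KO monocytes 2 and control monocytes 2. Single markers ran from 2.88% to 31.5%, from 2.91% to 32.8% and from 0% to 43.7% in these libraries. In control monocytes 2, P2ry12 stood at 3.56% and Tmem119 at 3.20%, both under Sall1, and Csf1r at 43.7%, above it. Sall3 stood between 0.996% and 5.78% in these 6 libraries, below the median marker in each, and Mef2c between 2.96% and 33.4%. The fructose transporter gene Slc2a5, one of the 12 markers, was at 0 in KO monocytes 3 and in control monocytes 1 and 2, and no other marker was at 0 in a Cre monocyte library. Summed marker levels were 29857 to 45875 in KO monocytes and 32035 to 43029 in control monocytes, against 267091 to 337512 in KO microglia and 208959 to 332269 in control microglia. In GFP monocytes 1, 2 and 4 the median marker was at 17.0%, 15.7% and 12.2% and Sall1 at 2.07%, 0.875% and 3.17%. GFP monocytes 3 had 7 of the 12 markers at 0. The part of microglial RNA in the Sall1 values of monocytes was not tested.

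**Figure D4:**
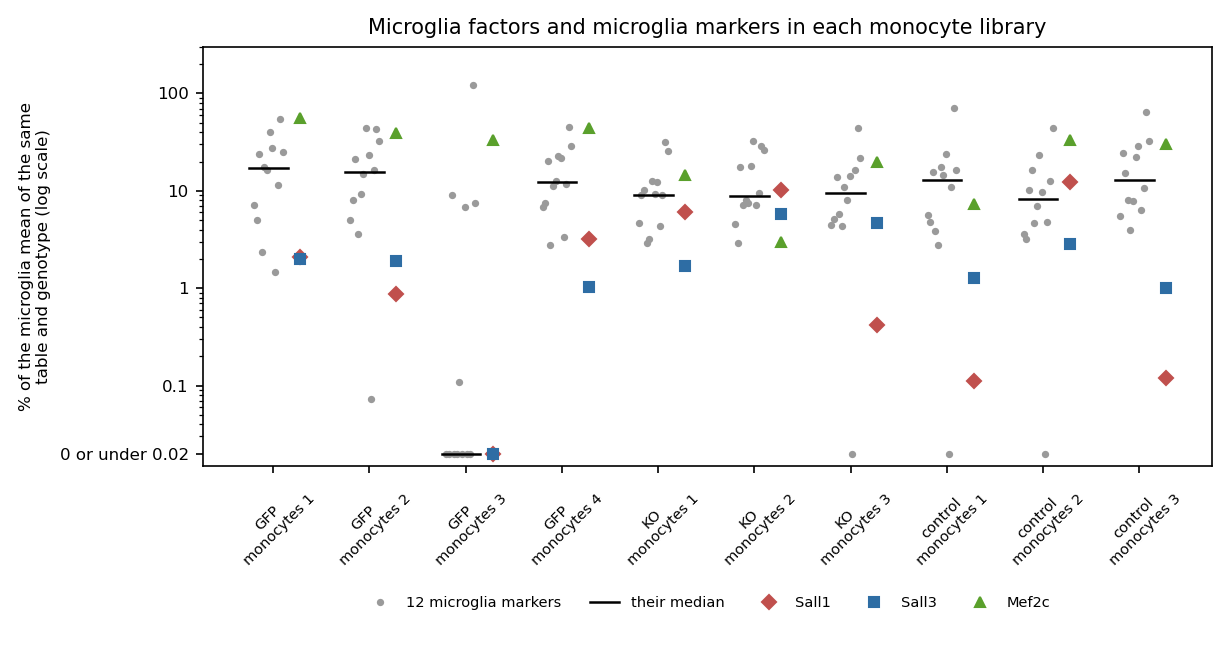
Level of Sall1, Sall3 and Mef2c and of 12 microglia markers in each monocyte library, as a percentage of the mean of the microglia group of the same table and genotype, on a log scale; values of 0 are drawn at the lowest tick. Sall1 is at 0.110% to 0.422% in 3 Cre monocyte libraries and at 6.11% to 12.4% in the other 3, where the marker medians are 8.32% to 9.09%.

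Runx3 was close to absent in microglia and present in each monocyte library. GFP monocytes had 293, 212, 260.4 and 359 normalized counts and GFP microglia 7.75, 1.72, 0 and 0. KO monocytes had 1753, 2109 and 1879 normalized counts and KO microglia 0.912, 3.74 and 0. Control monocytes had 2333, 2028 and 2546 normalized counts and control microglia 0, 7.88 and 0. Runx3 was the steadiest of the 9 genes within Cre monocytes, with a coefficient of variation of 9.43% in KO and 11.3% in control mice. It was called higher in monocytes in KO mice (log2 fold 9.84, SE 1.07, limma, adjusted p = 0.000247) and in control mice (log2 fold 10.11, SE 1.07, limma, adjusted p = 0.000206). In GFP mice the log2 fold of 6.97 (SE 1.80, limma) just missed the threshold (adjusted p = 0.0622), and it passed with edgeR (0.0188), DESeq2 (1.19e-06), CPM scaling (0.0381), upper quartile scaling (0.0374) and a pseudocount of 10 (log2 fold 4.57, adjusted p = 0.00363), and without GFP microglia 1 (0.0472) or GFP microglia 4 (0.0499). The size of such folds depends on the 1 added before the logarithm. From the reads themselves, 10457 in KO monocytes against 3 in KO microglia, the ratio per normalized library was 1830.1 with an exact 95% counting interval of 626 to 8876. The same ratio was 1057 (interval 536 to 2450.1) in control mice, with 8 microglial reads, and 138 (66.7 to 343) in GFP mice, with 7.

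Runx1, the relative of Runx3 that starts definitive blood formation, was expressed in both populations. Values were 583, 420.4, 313 and 553 normalized counts in GFP monocytes and 555, 440.2, 877 and 120.0 in GFP microglia, the monocytes lying inside the microglia range. In KO mice monocytes had 836, 1799 and 1451 normalized counts and microglia 1895, 2143 and 1855. In control mice monocytes had 1479, 702 and 1375 and microglia 2363, 2003 and 1671. Monocytes were lower without overlap in both genotypes, yet by under 1 on the log2 scale and without a call (KO mice -0.60, SE 0.39, adjusted p = 0.459; control mice -0.82, SE 0.39, adjusted p = 0.277, limma). The third family gene, Runx2, known for its role in bone, was called higher in KO monocytes. It had 197, 561 and 118 normalized counts in KO monocytes, against 1.824, 1.87 and 2.59 in KO microglia (log2 fold 6.27, SE 1.53, limma, adjusted p = 0.0299). In control mice Runx2 had 179, 2.19 and 178 in monocytes and 5.63, 10.8 and 7.69 in microglia, so that control monocytes 2 fell among the microglia and no call was made (limma, adjusted p = 0.429). GFP monocytes had 58.3, 39.4, 0 and 111 and GFP microglia 2.58, 3.44, 0 and 0, too low for the test.

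The promoter windows of the family are shown because the genes share a short run of letters with copies of the RUNX motif. RefSeq start sites (GRCm38.p6, 250 bases before to 50 after the start) were found for 7 of the 9 factors, in 14 windows. Capitals mark matches to the RUNX motif TGTGGT on either strand, to the PU.1 motif GGAAGT and to the C/EBP motif TTGCNNAA, and no 2 matches overlapped. The windows lie at chr4:135120395-135120694 (plus strand, upstream start of Runx3), chr16:92826025-92826324 (minus strand, upstream start of Runx1) and chr17:44814578-44814877 (minus strand, Runx2).
Runx3 upstream start: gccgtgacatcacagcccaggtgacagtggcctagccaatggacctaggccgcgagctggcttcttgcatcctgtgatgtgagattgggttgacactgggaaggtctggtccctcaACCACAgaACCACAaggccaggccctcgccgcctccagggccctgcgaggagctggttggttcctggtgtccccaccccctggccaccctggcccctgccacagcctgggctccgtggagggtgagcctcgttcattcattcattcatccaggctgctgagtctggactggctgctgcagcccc
Runx1 upstream start: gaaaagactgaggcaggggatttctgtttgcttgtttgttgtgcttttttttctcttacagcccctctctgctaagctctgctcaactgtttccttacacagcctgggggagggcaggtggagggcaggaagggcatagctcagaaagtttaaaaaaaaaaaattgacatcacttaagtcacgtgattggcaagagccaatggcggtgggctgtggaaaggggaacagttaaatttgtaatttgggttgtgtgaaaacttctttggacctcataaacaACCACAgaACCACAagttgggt
Runx2: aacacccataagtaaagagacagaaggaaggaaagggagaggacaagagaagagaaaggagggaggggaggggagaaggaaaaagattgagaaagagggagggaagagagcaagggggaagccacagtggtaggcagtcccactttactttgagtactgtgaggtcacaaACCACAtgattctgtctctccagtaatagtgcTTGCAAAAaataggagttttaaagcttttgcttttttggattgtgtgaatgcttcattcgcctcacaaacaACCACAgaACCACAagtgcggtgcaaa
Among the 14 windows, 2 held a RUNX match, the upstream starts of Runx1 and Runx3, against 16.8% of all 32851 promoter windows of the table. All 3 windows shown hold the same 18 letters, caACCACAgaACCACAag, with 2 RUNX matches on the opposite strand. This run began 26 bases after the Runx1 start and 136 bases before the Runx3 start, with the start base counted as 0. It occurred in 4 of the 32851 windows, those of Runx1, Runx2, Runx3 and Gm16225, the last of which overlaps the Runx3 window. The run was noticed while the windows were read and no test was made on it. Downstream starts of Runx1 and Runx3 held no match, and which start was used cannot be read from counts per gene. A match is a description of letters and not of binding.

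PU.1 matches fell in 2 of the 14 windows, against 23.8% of all windows, namely in a Sall1 and a Mef2c window. The Sall1 window is the most downstream of 3 starts (chr8:89042813-89043112, minus strand). The Mef2c window is the most upstream of 3 starts (chr13:83503784-83504083, plus strand). Both are shown with the match in capitals, and the other starts of these genes held no match.
Sall1 downstream start: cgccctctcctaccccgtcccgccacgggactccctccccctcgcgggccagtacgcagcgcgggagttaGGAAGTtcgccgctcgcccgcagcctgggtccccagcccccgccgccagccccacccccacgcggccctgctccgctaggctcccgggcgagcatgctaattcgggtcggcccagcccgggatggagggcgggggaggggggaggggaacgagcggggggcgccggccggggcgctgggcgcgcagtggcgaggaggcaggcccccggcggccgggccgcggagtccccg
Mef2c upstream start: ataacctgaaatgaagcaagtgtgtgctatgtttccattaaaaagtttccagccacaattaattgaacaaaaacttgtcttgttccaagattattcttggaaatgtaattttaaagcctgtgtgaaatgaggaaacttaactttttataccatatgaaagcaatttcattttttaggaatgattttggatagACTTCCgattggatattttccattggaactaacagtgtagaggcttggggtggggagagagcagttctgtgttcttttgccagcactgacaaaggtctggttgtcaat
The Sall1 match began 180 bases before its start and the Mef2c match, on the opposite strand, 58 bases before. The C/EBP motif was in 0 of the 14 windows, against 10.8% of all windows.

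Irf8 had lower values in most monocyte libraries than in microglia and was nearly missing from 1 library. With all libraries kept it was called in no comparison. GFP monocytes had 219, 225, 416 and 213 normalized counts and GFP microglia 393, 466, 348 and 593. Without the 3 GFP libraries with few detected genes, Irf8 was called lower in GFP monocytes (log2 fold -0.96, limma, adjusted p = 0.0141). That fit kept only GFP microglia 1 and 2, both pools of mice. It left out the monocyte value of 416 and the microglia values of 348 and 593. In KO mice the values were 1105, 867 and 1295 in monocytes and 2689, 1672 and 2339 in microglia, with no overlap. In control mice they were 909, 6.58 and 1496 in monocytes and 3116, 2639 and 2922 in microglia, also with no overlap. The 6.58 normalized counts of control monocytes 2 are 3 reads, and the highest control monocyte library stood 227-fold above it. The log2 fold was -0.77 (SE 0.71, adjusted p = 0.999) in GFP mice, -1.03 (SE 1.45, adjusted p = 0.779) in KO mice and -3.73 (SE 1.45, adjusted p = 0.176) in control mice by limma. Without control monocytes 2 the log2 folds were -1.03 (adjusted p = 0.0799) in KO mice and -1.31 (adjusted p = 0.0620) in control mice by limma. Other genes were low in that library as well, as seen in a count made after the value was noticed. Of 2586 genes with 500 or more normalized counts in each of the other 5 Cre monocyte libraries, 29 were under 10 in control monocytes 2, against 0 to 3 in the same count for each of the other 11 Cre libraries within its own population. Control monocytes 2 also had the fewest reads of the Cre monocytes (10406321) and the fewest detected genes of the Cre libraries (10350). The part of these in the Irf8 value was not tested.

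Spi1 did not separate the populations. GFP monocytes had 188, 167, 23.8 and 269 normalized counts and GFP microglia 149.8, 181, 139.9 and 262. KO monocytes had 1814, 613 and 1112 and KO microglia 692, 786 and 1395, while control monocytes had 1426, 1685 and 1183 and control microglia 1154, 1075 and 542. The control groups met almost edge to edge, at 1183 and 1154, and the other groups overlapped. Log2 folds of monocytes over microglia were -0.57 (SE 1.05, 95% interval -2.72 to 1.59) in GFP mice, 0.23 (SE 0.49) in KO mice and 0.69 (SE 0.49, 95% interval -0.37 to 1.76) in control mice, with adjusted p of 0.999, 0.865 and 0.487 (limma).

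Cebpb had higher values in monocytes in KO and control mice and was called in control mice. KO monocytes had 859.9, 1113 and 1139 normalized counts and KO microglia 436, 601 and 348. Control monocytes had 1234, 1988 and 1384 and control microglia 647, 450.0 and 357. Neither pair of groups overlapped, and the log2 fold was called in control mice (1.67, SE 0.41, limma, adjusted p = 0.0309) but not in KO mice (log2 fold 1.19, SE 0.41, limma, adjusted p = 0.118), where DESeq2 called it (log2 fold 1.17, adjusted p = 0.0151). The difference between the genotypes was not called (genotype-by-population term -0.48, SE 0.58, limma, adjusted p = 0.999). The control call was lost with edgeR (adjusted p = 0.0517), with CPM scaling (0.0527), with the control groups fitted alone (0.107) and without any one of control monocytes 1, 2 or 3 or control microglia 2 or 3 (0.0533 to 0.102). In GFP mice monocytes had 414, 419, 477 and 732 normalized counts and microglia 217, 161, 107 and 636. The last microglia library lay inside the monocyte range, and no call was made (log2 fold 1.16, SE 0.75, limma, adjusted p = 0.919). Tmem189, which overlaps Cebpb on the other strand, had more counts in monocytes as well, at 1350.0 ± 182 in KO monocytes and 407 ± 136 in KO microglia and at 1542 ± 624 in control monocytes and 261 ± 124 in control microglia (SD, n = 3 each). No source used here says whether counting used strand, so reads of the 2 genes may not be fully told apart.

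With all libraries kept, Klf4 did not separate the populations either. GFP monocytes had 397, 481, 459 and 317 normalized counts and GFP microglia 170.5, 102, 662 and 104. The GFP groups overlapped only through GFP microglia 3 (662), 1 of the 3 GFP libraries with few detected genes. Without those 3 libraries Klf4 was called higher in GFP monocytes (log2 fold 1.56, limma, adjusted p = 0.00356), in a fit that kept only GFP microglia 1 and 2, both pools of mice. KO monocytes had 1357, 2385 and 2386 and KO microglia 1893, 1146 and 2126. Control monocytes had 1579, 895 and 2143 and control microglia 2077, 1361 and 724. All 3 pairs of groups overlapped, with log2 folds of 1.13 (95% interval -0.55 to 2.81) in GFP mice, 0.25 (SE 0.48) in KO mice and 0.19 (-0.86 to 1.24) in control mice (limma).

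Differences within animals were read from the same libraries. Sall1, Sall3, Mef2c and Runx3 had no overlap in any of the 3 population comparisons, nor had Cebpb in KO and control mice. For these the sign within each animal is fixed by that and adds no separate support. Among 8 mice or pools that gave both populations, the log2 difference of monocytes minus microglia was below 0 in 8 of 8 for Sall1 (-10.96 to -3.99), Sall3 (-9.44 to -4.74) and Mef2c (-4.16 to -0.65), and above 0 in 8 of 8 for Runx3 (5.07 to 11.31) and Cebpb (0.20 to 2.14). Irf8 was lower in monocytes in 7 of 8, and the animal of control monocytes 2 is not among them because it gave no microglia library. Runx1 was lower in 6 of 8, Klf4 higher in 6 of 8 and Spi1 higher in 5 of 8. Without the 3 GFP libraries with few detected genes, 7 of the 9 factors were called in GFP mice, against 15.5% of tested genes (1198 of 7706). Runx3, Cebpb (log2 fold 1.42) and Klf4 (1.56) were higher, and Sall1, Sall3, Mef2c (-1.18) and Irf8 (-0.96) lower in monocytes. That fit set GFP monocytes 1, 2 and 4 against only GFP microglia 1 and 2, which are pools of 2 and 5 mice.

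The next comparisons ask whether these factors differ between KO and control mice, first in monocytes and then in microglia. None was called in KO against control monocytes (0 of 9 by limma, with 0 at an unadjusted p under 0.05, and 0 by edgeR or DESeq2), against 0.0402% of tested genes, and 1 did not overlap, against 8.82%. That gene was Cebpb, which averaged 1037 ± 154 in KO monocytes and 1535 ± 399 in control monocytes (SD, n = 3 each), a log2 fold of -0.55 (95% interval -1.44 to 0.35, limma, adjusted p = 0.896). Runx3 averaged 1914 ± 180 in KO monocytes and 2302 ± 260 in control monocytes, with overlap and a wide interval (log2 fold -0.26, -2.59 to 2.06). The spread behind this interval is shared with the microglia libraries, where Runx3 was close to absent. Within KO and control monocytes its coefficient of variation was 9.43% and 11.3%, against 126% and 173% in microglia. Irf8 had a log2 fold of 2.30 (-0.87 to 5.48), which became -0.12 without control monocytes 2. Sall1 (2.22) and Sall3 (1.03) had positive and Mef2c (-0.98) negative log2 folds, each with an interval that includes 0. Of 13 tested neutrophil and granule genes, 1 (Elane, limma, adjusted p = 0.0207) was higher in KO monocytes, and the summed levels of that list, given at the start, ran higher in KO monocytes with overlap.

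In KO against control microglia, none of the 9 factors was called either (0 by limma, edgeR and DESeq2, with 0 at an unadjusted p under 0.05), against 0.0322% of tested genes, and none was without overlap, against 9.46%. Their log2 folds ran from -0.40 for Irf8 (95% interval -3.57 to 2.78) to 0.39 for Klf4 (-0.66 to 1.44). The narrowest intervals were those of Runx1 (-0.02, -0.88 to 0.83) and Cebpb (-0.06, -0.96 to 0.83), which leave room for changes under 2-fold. No factor passed the genotype-by-population term (0 of 9, with 0 at an unadjusted p under 0.05 and 0 by edgeR or DESeq2), where 0% of tested genes were called. With 3 libraries a group, the intervals of Sall1, Irf8 and Runx3 hold changes of several-fold in either direction in microglia. The spread behind these intervals is shared by the 4 Cre groups, so it takes in the monocyte libraries. Within KO and control microglia the coefficient of variation was 9.29% and 16.6% for Sall1 and 23.1% and 8.29% for Irf8. For Runx3, close to absent there, it was 126% and 173%.

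**Figure D5:**
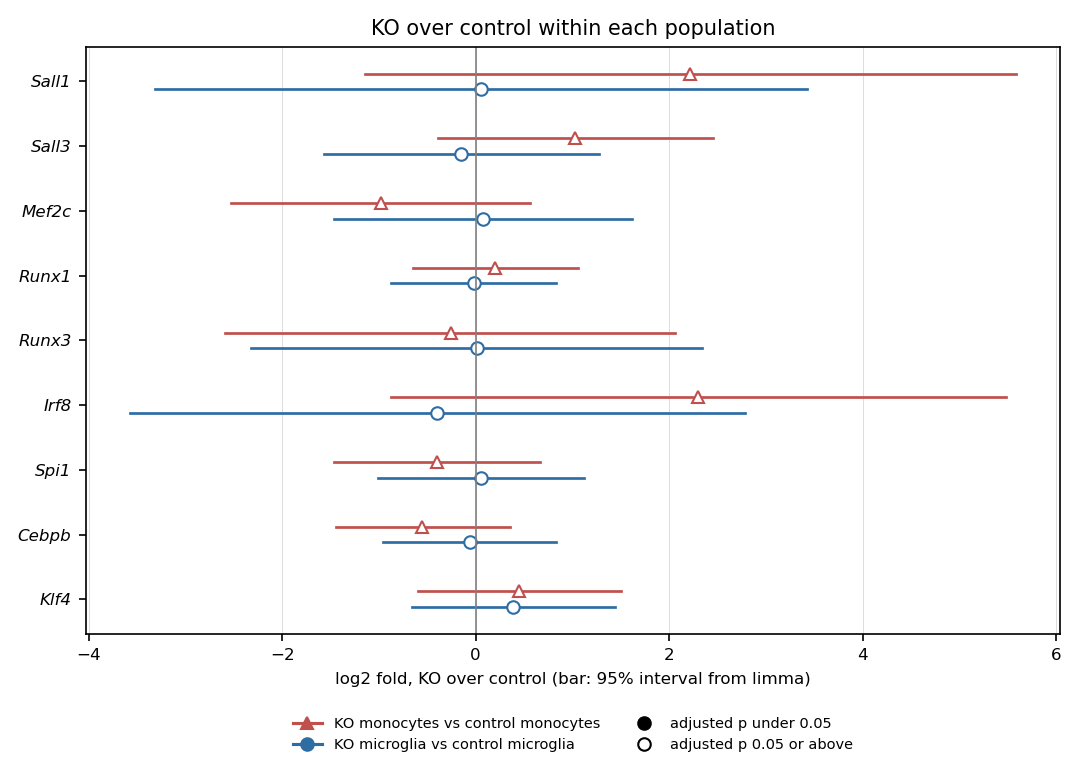
Log2 fold of KO over control for each factor, in monocytes (triangles) and in microglia (circles), with 95% intervals from limma; open symbols have an adjusted p of 0.05 or above. Every symbol is open and every interval includes 0, with the widest intervals for Sall1 and Irf8.

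Around the 9 factors, relatives and signalling genes of the same lineages were read in the same fits. For the counts of monocytes against microglia below, the share called over all tested genes was 0.908% in GFP, 6.83% in KO and 6.52% in control mice. Among 27 tested relatives (of the IRF, KLF, C/EBP, RUNX, SALL, MEF2 and PU.1 families, from a list of 32), 3 were higher and 1 lower in KO monocytes than in KO microglia, and 2 were higher and 1 lower in control monocytes than in control microglia. Irf7, which amplifies the interferon response, averaged 4469 ± 2937 normalized counts in KO monocytes and 532 ± 169 in KO microglia, and 5442 ± 3064 in control monocytes and 687 ± 48.2 in control microglia (log2 folds 2.92 and 2.84, limma, adjusted p = 0.00480 and 0.00566). Klf13 was higher in monocytes as well (log2 folds 2.00 in KO and 2.24 in control mice, limma, adjusted p = 0.00504 and 0.00252). Klf2, known as a quiescence factor of leukocytes, was lower, at 663 ± 119 in KO monocytes and 1990 ± 194 in KO microglia and at 494 ± 227 in control monocytes and 1607 ± 470 in control microglia (log2 folds -1.59 and -1.77, limma, adjusted p = 0.0413 and 0.0256). In GFP mice none of 22 tested relatives was called (4 at an unadjusted p under 0.05, 0 by edgeR and 1 by DESeq2), with Klf2 at a log2 fold of -3.85 and Sall2, another SALL gene, at -5.22.

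Of 30 other myeloid lineage factors tested from a list of 34, 3 were higher and 1 lower in KO monocytes, and 2 higher and 1 lower in control monocytes, each against their own microglia. The ligand-activated receptor Ahr had 344, 836 and 379 normalized counts in KO monocytes and 0, 1.87 and 0 in KO microglia, and 307, 92.2 and 277 in control monocytes and 0, 0 and 0.854 in control microglia. Bhlhe40 and Bhlhe41, paralogous repressors, moved in opposite directions: Bhlhe40 was higher in monocytes (log2 folds 8.84 in KO and 5.81 in control mice, limma, adjusted p = 0.00265 and 0.0272) and Bhlhe41 lower (log2 folds -1.82 and -1.56, limma, adjusted p = 0.00308 and 0.00768). Nr1h3, which encodes the oxysterol receptor LXR-alpha, had 267, 30.8 and 262 in KO monocytes and 0 in all KO microglia libraries (limma, adjusted p = 0.0308). It had 191, 0 and 51.1 in control monocytes and 0 in all control microglia libraries (limma, adjusted p = 0.177). In GFP mice none of 24 tested was called (4 at an unadjusted p under 0.05, 2 by edgeR and 3 by DESeq2), and Bhlhe40 (log2 fold 6.82, limma, adjusted p = 0.0739) and Rara (6.96, 0.0786) had the smallest p.

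In the list of lineage cytokines and their receptors, the median log2 fold of monocytes over microglia was -1.16 in GFP, 0.24 in KO and 0.33 in control mice. Over all tested genes it was 0.51, -0.25 and -0.24. Every gene of this list that was called was lower in monocytes. Csf1r, the receptor for CSF1 on which microglia depend and also 1 of the 12 microglia markers, was called in all 3 comparisons. It averaged 1812 ± 855 normalized counts in GFP monocytes and 7711 ± 2164 in GFP microglia (n = 4 each), 4704 ± 460 in KO monocytes and 19142 ± 4040 in KO microglia, and 5205 ± 2337 in control monocytes and 16831 ± 3578 in control microglia (SD, n = 3 each). The log2 folds were -2.24, -2.01 and -1.79 (limma, adjusted p = 0.000303, 0.00378 and 0.00753), and DESeq2 called no gene of this list in GFP mice. Of the cytokine and receptor list, 1 of 7 tested was called in GFP mice and 1 of 8 in KO mice, both Csf1r, and 2 of 8 in control mice, where Csf1 itself was also lower (64.1 ± 68.7 in control monocytes and 882 ± 247 in control microglia, log2 fold -4.90, limma, adjusted p = 0.0216). TGF-beta signalling is known to sustain Sall1 in microglia, a link that was not tested here. Of 16 tested pathway genes, 2 were lower in KO monocytes and 2 in control monocytes, with none higher. Among all tested genes 6.83% and 6.52% were called in either direction. The pathway's median log2 fold was -0.05 in KO mice and -0.91 in control mice, against -0.25 and -0.24 for all tested genes. Tgfbr1 was lower in both (2878 ± 725 in KO monocytes and 8905 ± 1063 in KO microglia, and 2931 ± 1131 in control monocytes and 8050 ± 2962 in control microglia, limma, adjusted p = 0.0195 and 0.0349). The other gene was Pmepa1, a feedback inhibitor, in KO mice (log2 fold -1.45, limma, adjusted p = 0.0418) and Tgfbr2 in control mice (-1.74, limma, adjusted p = 0.0438). None of 15 was called in GFP mice (1 at an unadjusted p under 0.05, 0 by edgeR or DESeq2), where Smad7 (-3.47) and Tgfbr2 (-1.13) had the smallest p. Among 20 partners and cofactors, 1 was called in KO mice (Ep300, a coactivator, log2 fold -2.21, limma, adjusted p = 0.0390, against 0.02 and 0.993 in control mice) and none in control mice (6 at an unadjusted p under 0.05, 0 by edgeR and 3 by DESeq2), where Rbbp7 (-1.53) and Tle3 (1.32) had the smallest p. In GFP mice none of 19 was called (0 at an unadjusted p under 0.05, 0 by edgeR or DESeq2), with Rbbp4 (2.31) and Ep300 (-0.70) first by p. In KO against control cells of either population none of these lists had a gene called by limma or edgeR. At an unadjusted p under 0.05 stood 2 relatives, 1 other lineage factor, 3 partners, 1 TGF-beta gene and 1 receptor or cytokine gene in monocytes, and 1 relative and 1 TGF-beta gene in microglia. DESeq2 called 1 relative, 1 other lineage factor and 1 partner in monocytes, and 1 relative and 1 other lineage factor in microglia.

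Genes most like each factor were those with the smallest root mean square difference between centred log2 profiles over the 12 Cre libraries, which share 4 groups and 2 populations. Runx3 was most like Cxcr4 (difference 0.74), the gene whose reporter or Cre line was used to sort the cells, and then Gm9733 (1.01), against a median of 5.40 over 12414 genes. Sall3 was most like Sparc (0.63), a secreted matrix protein, and Lag3 (0.79), and Sall1 was most like the serine protease gene Klk8 (1.04) and Ipcef1 (1.46). Klk8 also had its higher monocyte values in KO monocytes 1 and 2 and control monocytes 2, at 40.8, 332 and 65.8 normalized counts, and was at 0 in the other 3 Cre monocyte libraries. Mef2c was nearest to T2 (0.60) and Olfr1221 (0.64), Irf8 to Exoc4 (0.52) and Lhfpl2 (0.53), and Cebpb to Ugcg (0.27) and Iqsec1 (0.28). For the factors with little difference between populations the nearest genes were Edem1 (0.26) and Rnaset2a (0.29) for Runx1, Capns1 (0.30) and Stat3 (0.34) for Spi1, and Rab10 (0.22) and Il17ra (0.35) for Klf4. In the 8 GFP libraries the same difference was larger for each of these pairs measured there. It ran from 0.62 for Mef2c and T2 to 3.47 for Irf8 and Exoc4, with 0.96 for Sall3 and Lag3, 1.35 for Runx3 and Cxcr4, 2.91 for Cebpb and Ugcg and 3.18 for Sall1 and Klk8. Mef2c and Olfr1221 were not compared there. The pairs were picked as the smallest differences in the Cre libraries, so larger values elsewhere can come from that choice alone. No median over all genes was taken in the GFP libraries.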

How the data were processed

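Mouse brain monocytes and microglia were profiled by RNA-seq in 20 libraries of 6 groups. The deposited values are a signal, normalized counts: in the authors' tables each library's values are reads per gene divided by 1 size factor, as the steps between values show. Per the labels' protocols, total RNA with Nugen Ovation SoLo was used for GFP mice, and SMART-Seq2 for KO and control mice. The submitters' processing notes name CASAVA 1.82, bcl2fastq 2.20, kallisto and DESeq2. No source used here gives a genome build or annotation. All values (100%) lay within 0.01 of a whole multiple of a library's smallest step, so whole reads were recovered. A ribosomal transcript, Rn45s, took 22.1% to 48.3% of GFP reads.

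Genes with 10 or more in at least 4 (GFP) or 3 (Cre) libraries were tested (7706 and 12432) as log2(value + 1) with limma 3.58.1 (R 4.3.3), an intensity trend and Benjamini-Hochberg adjustment. The 4 Cre groups shared 1 spread estimate. The analysis was repeated with a pseudocount of 10, without the filter, with a mean of 50 or more, with CPM and upper quartile scaling, with edgeR 4.0.16 and DESeq2 1.42.0 on whole reads, with the animal as a block, with the 2 groups alone, and with libraries left out. The limma fit was run on simulated data for the GFP and the control mice, with the same spread setting for every gene and library. The real libraries had uneven spread, so that run does not bear on the calls of single factors. Titles tie libraries of the same mouse or pool together. The correlation of their deviations from group means was 0.24, 0.20, 0.13 and -0.11 for the GFP pairs 1 to 4 and -0.06 to 0.01 for the 4 Cre pairs.

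All 9 factors are named in each comparison, with up to 4 called genes of each context list (or the 2 of smallest p) and the 2 most similar genes. Runx2 outside KO mice, Tmem189, Elane and the shared promoter run were chosen after values were seen. The factors and lists were chosen with earlier results of these data known. Intervals and floors of 3 reads cover counting error only: without molecular identifiers, several reads may come from 1 molecule. Promoters of 2 factors were not used here.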

Additional observations from a re-analysis of the deposited data

Results flagged for a closer look

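Among 18 groups of 4 GFP libraries (9 factors in 2 populations), 2 had a single library far from its fellows, where chance gives about 1 in 20. Irf8 had 416 normalized counts in GFP monocytes 3, against 213 to 225 in the other 3 GFP monocyte libraries, a gap of 0.941 of the group's range. Klf4 had 662 normalized counts in GFP microglia 3, against 102 to 170.5 in the other 3 GFP microglia libraries, a gap of 0.878 of the range. GFP monocytes 3 and GFP microglia 3 came from the same mouse and had 3029 and 5598 detected genes, and the part of that in these values was not tested.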

How the results depend on the processing

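Of the 9 factors, 2 were called in GFP mice, and this number was 1 with the animal as a block or with no filter on low values, 7 without GFP monocytes 3 and GFP microglia 3 and 4, and 1 to 2 with single libraries left out (1 without GFP microglia 2 or 3). The block changed no other number of factors called. In KO mice the 3 called factors became 5 with DESeq2, and 2 to 4 with single libraries left out. In control mice the 4 became 2 with edgeR, 2 with the 2 groups alone and 2 to 5 with single libraries left out (2 without control monocytes 1 or 3 or control microglia 3). None was called in KO against control cells, or by the genotype-by-population term, under any alternative. No called fold changed sign, and among folds not called the sign turned 2 times in control mice, 4 in KO mice, 5 in GFP mice, 23 in KO against control microglia, 4 in KO against control monocytes and 13 for the genotype-by-population term. The causes were not tested.

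Over all genes, the 70 called in GFP mice became 187 with DESeq2, 38 with no filter, 198 with a pseudocount of 10, 127 with upper quartile scaling, 1198 without the same 3 libraries and 33 to 129 with single libraries left out (33 without GFP microglia 3, 129 without GFP monocytes 3). The 849 of KO mice became 1570 with DESeq2, 522 with edgeR and 482 to 1013 with single libraries left out. The 810 of control mice became 1614 with DESeq2, 478 with edgeR and 386 with the 2 groups alone. KO against control monocytes gave 5 genes, 339 with DESeq2, 0 with edgeR, a mean filter or the 2 groups alone, and 1 to 30 with single libraries left out. KO against control microglia gave 4 genes, 109 with DESeq2, 0 with edgeR, a mean filter or the 2 groups alone, and 0 to 8 with single libraries left out. The genotype-by-population term gave 0 genes (590 at an unadjusted p under 0.05), 276 with DESeq2 and 0 to 1 with single libraries left out. CPM scaling moved the median log2 fold of all genes to 0.65, -0.48 and -0.40 in GFP, KO and control mice, and the split of higher and lower calls from 32 and 38 to 58 and 44 in GFP mice and from 479 and 370 to 374 and 460 in KO mice and from 430 and 380 to 363 and 432 in control mice. The split was 113 and 74 with DESeq2 in GFP mice and 352 and 170 with edgeR in KO mice.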
